A study of Mus musculus with 12 samples.

Results

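TRAJ45 is a joining segment of the mouse T cell receptor alpha locus (mm10, chr14:54172831-54172890 in the RefSeq gene table of that build, 60 bases). It lies between TRAJ47, 974 bases upstream, and TRAJ44, 799 bases downstream. It was described in the alpha and delta chain clonotype tables of 12 libraries made from sorted thymocytes. Its members are the productive clonotypes (a covered CDR3 with neither frame shift nor stop codon) whose best J hit is TRAJ45. There were 2485 such clonotypes with 4805 reads, of 165126 productive clonotypes with 344406 reads in all. A TRAV segment was joined in 2349 of them, with 4554 reads, and a delta chain V segment (TRDV) in the other 136, with 251 reads. The shares below use the TRAV joins only. No TRAJ45 read had a second J segment with the same score, and 17.9% of the reads had a tied best V segment, so V partners are given by family.

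The groups were Chrna9-/- (KO) CD4SP, WT CD4SP, KO CD8SP and WT CD8SP thymocytes, with 3 libraries in each from 6 mice in all. Chrna9 encodes the alpha 9 subunit of nicotinic acetylcholine receptors. The mice formed 2 pairs of males and 1 pair of females, and their strain and age are not given in the sources used here. Cells were sorted by CD4 and CD8 alone, 1000000 per CD4SP sample and 330000 per CD8SP sample, so the gate can also hold immature cells and innate-like T cells. The libraries carry no readout of Chrna9, CD4 or CD8, and neither genotype nor sort could be checked. Productive TRA reads numbered 23765 to 30831 per library in KO CD4SP, 19847 to 24605 in WT CD4SP, 31205 to 33285 in KO CD8SP and 23402 to 33885 in WT CD8SP. The invariant natural killer T chain (TRAV11 with TRAJ18) made up 5.26% to 8.49% of the CD4SP reads of a library and 0.0495% to 0.0983% of the CD8SP reads. The mucosal-associated invariant chain (TRAV1 with TRAJ33) stayed at or below 0.0295%.

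During thymocyte development 1 V and 1 J segment of the alpha locus are cut and joined, with bases trimmed from the ends and others added, and the join forms the CDR3 loop that touches the peptide held by an MHC molecule. The J segment therefore sets the residues of the second part of that loop. Rearrangement tends to begin with V segments near the J cluster and J segments at its upstream end, and successive rounds move outwards. Joins out of frame make no receptor and are carried along by a second, productive allele, so they are not selected for a receptor of their own. CD4SP cells follow selection on MHC class II and CD8SP cells on MHC class I.

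The germline sequence of TRAJ45 was read from untrimmed joins and is shown with its upstream and downstream neighbours to show the charged codons it brings into the loop. Capitals mark the codons of aspartate and glutamate before the framework 4 region.
TRAJ45: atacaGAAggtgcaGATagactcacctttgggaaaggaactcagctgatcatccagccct
TRAJ47: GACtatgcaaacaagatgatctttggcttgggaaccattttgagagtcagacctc
TRAJ44: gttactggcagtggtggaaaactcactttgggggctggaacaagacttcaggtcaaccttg
The 29 bases of TRAJ45 before framework 4 encode threonine, glutamate, glycine, alanine, aspartate, arginine, leucine, threonine and phenylalanine. With aspartate and glutamate at -1 each, and arginine and lysine at 1 each, their net charge is -1. TRAJ47 brings a net charge of 0 and TRAJ44 one of 1. Of 43 TRAJ segments with a mean share of at least 0.1%, only TRAJ33 and TRAJ45 had a net charge of -1 in this count, while 12 had 0 and 29 had 1.

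TRAJ45 was scarce in CD4SP and of middling use in CD8SP thymocytes. It made up 0.564%, 0.686% and 0.686% of the productive TRA reads of the KO CD4SP libraries and 0.718%, 0.581% and 0.660% of the WT CD4SP libraries. In the KO CD8SP libraries it made up 2.05%, 1.89% and 1.99%, and in the WT CD8SP libraries 1.72%, 1.77% and 1.96%. All CD4SP libraries lay below all CD8SP libraries, and within each cell type the KO and WT libraries overlapped. The means were 0.645% ± 0.0701 in KO CD4SP, 0.653% ± 0.0686 in WT CD4SP, 1.97% ± 0.0802 in KO CD8SP and 1.82% ± 0.126 in WT CD8SP (SD, n = 3 each). The 95% Clopper-Pearson interval of a library's share, which covers counting error only, reached from 0.484% to 0.654% in KO CD4SP replicate 1 and from 1.90% to 2.20% in KO CD8SP of the same mouse. In the order of levels, KO CD8SP stood above WT CD8SP, with KO higher in each pair and the libraries overlapping. WT CD4SP and KO CD4SP came next, with means closer than either SD. KO and WT are tested below. Reads are a product of cell number and RNA per cell, and a lower share of cells and less RNA per cell cannot be told apart in bulk libraries.

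TRAJ45 was chosen by its read shares in CD4SP and CD8SP, low in CD4SP and high in CD8SP, and by the acidic residues of its loops, so that contrast and the charge are described here without a test. Over 6 mice the share was 0.649% ± 0.0622 in CD4SP and 1.895% ± 0.129 in CD8SP (SD, n = 6 each), lower in CD4SP in 6 of 6 mice. The fitted log2 fold change of CD4SP over CD8SP was -1.55 (SE 0.0715), the lowest of the 43 segments. The invariant natural killer T chain adds to the CD4SP totals, and without its reads the value was -1.45. TRAJ45 ranked 35 to 38 among TRAJ segments in the CD4SP libraries and 19 to 21 in the CD8SP libraries. When each nucleotide clonotype was counted once, the shares were 0.839% ± 0.0562 in CD4SP and 2.01% ± 0.1401 in CD8SP, a log2 fold change of -1.26. TRAJ45 clonotypes had 1.48 ± 0.0352 reads each in CD4SP and 2.12 ± 0.0787 in CD8SP, where clonotypes of all other TRAJ had 1.92 and 2.25.

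**Figure D1:**
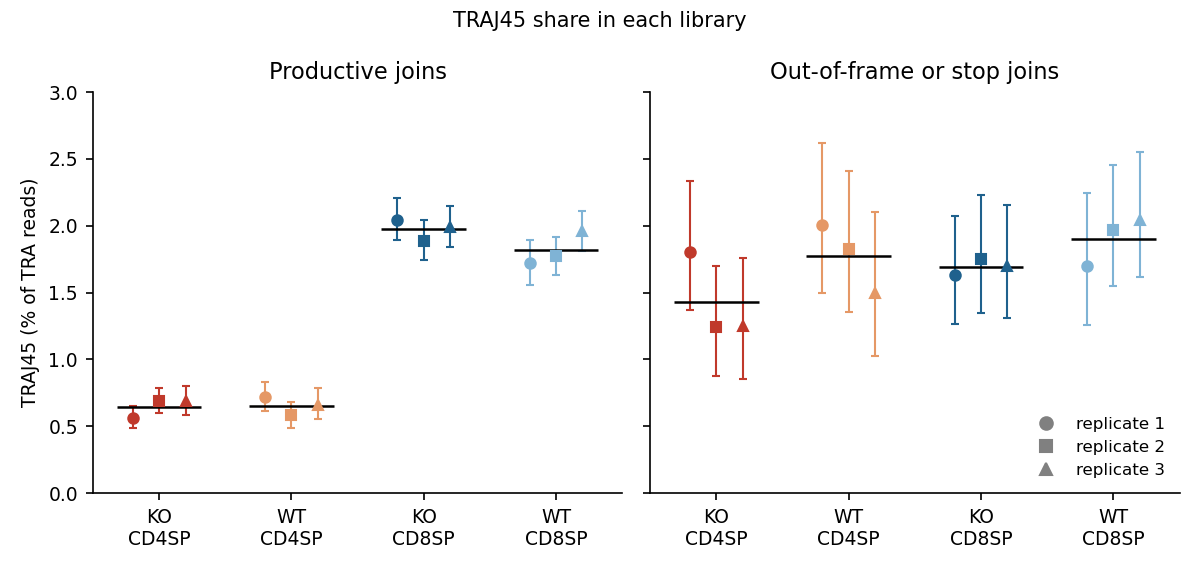
Share of TRAJ45 in the TRA reads of each library (y axis, percent), for productive joins (left) and for out-of-frame or stop-codon joins (right), by group (x axis). Points are libraries with 95% Clopper-Pearson intervals and lines are group means. Productive shares lie between 0.564% and 0.718% in CD4SP and between 1.72% and 2.05% in CD8SP, and the shares of the other joins overlap between the cell types.

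The shares of joins that make no receptor overlapped between the cell types. Out-of-frame or stop-codon TRAJ45 joins came to 656 reads in 480 clonotypes, and 99.1% of the reads were out of frame. TRAJ45 made up 1.80%, 1.24% and 1.25% of such TRA reads in KO CD4SP and 2.003%, 1.83% and 1.49% in WT CD4SP. In KO CD8SP it made up 1.63%, 1.75% and 1.70%, and in WT CD8SP 1.70%, 1.96% and 2.05%. The cell types overlapped, with means of 1.60% ± 0.322 in CD4SP and 1.80% ± 0.167 in CD8SP (SD, n = 6 each), lower in CD4SP in 4 of 6 mice. Each of these values rests on 32 to 77 reads. The productive share divided by the out-of-frame share was 0.313 to 0.554 in the CD4SP libraries and 0.901 to 1.25 in the CD8SP libraries. By the ratio of mean shares TRAJ45 stood at 0.405 in CD4SP, the 3rd lowest of 43 segments, where the median segment stood at 0.990. In CD8SP it stood at 1.05, place 24 from the lowest, against a median of 0.949. The cause of these ratios was not tested.

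Along the locus TRAJ45 sat at the end of a run of segments lower in CD4SP. The log2 fold changes of CD4SP over CD8SP were -0.32 for TRAJ50, -0.50 for TRAJ49, -0.76 for TRAJ48 and -1.10 for TRAJ47. On the downstream side the sign turned, with 0.54 for TRAJ44, 0.31 for TRAJ43 and 0.53 for TRAJ42. Of the 12 segments from TRAJ52 to TRAJ38 with a share of at least 0.1%, 7 were below 0 and 5 above. The segments nearest to TRAJ45 in this value were TRAJ47, TRAJ30 at -0.95, TRAJ26 at -0.84, TRAJ48 and TRAJ33 at -0.76. TRAJ33 is the segment of the mucosal-associated invariant chain. CD4SP and CD8SP libraries did not overlap, with CD4SP lower, for 17 of the 43 segments (39.5%), TRAJ45 among them, and for 11 with CD4SP higher.

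Sorted by the charge of their germline residues, both segments of net charge -1 were lower in CD4SP, with a median log2 fold change of -1.15. They are TRAJ45 at -1.55 and TRAJ33 at -0.76. TRAJ45 was chosen by this contrast and its charge, so its value, and with it this median, was built in. All 12 of charge 0 were lower too, with a median of -0.63 and a range of -1.10 to -0.07. TRAJ33 lies within that range. Of the 29 segments of charge 1, 10 were lower and 19 higher, with a median of 0.17 and a range of -0.44 to 2.27. Over all 43 segments, 24 were lower and 19 higher, with a median of -0.07. In the positively charged class the top value belonged to TRAJ18, the segment of the invariant natural killer T chain.

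**Figure D2:**
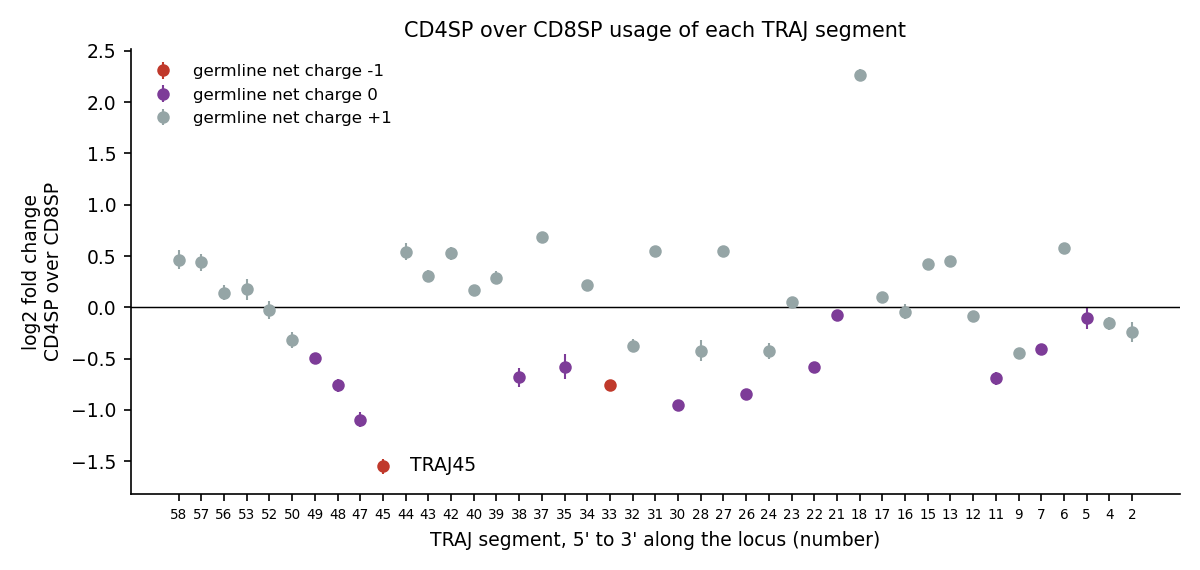
Log2 fold change of CD4SP over CD8SP (y axis) for 43 TRAJ segments in locus order (x axis), coloured by the net charge of the germline residues each brings to the CDR3. Bars are the standard error of the edgeR fit. TRAJ45 is lowest at -1.55, and both segments of charge -1 and all 12 of charge 0 lie below 0.

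What the joins kept of TRAJ45 differed between the cell types. The glutamate of TRAJ45 is the 8th residue from the end of the CDR3, and the aspartate is the 5th. The aspartate was present in 99.2% ± 0.373 of TRAJ45 reads in CD4SP and 99.5% ± 0.499 in CD8SP (SD, n = 6 each). The glutamate was kept in 86.6% ± 3.49 of the reads in CD4SP and 95.5% ± 0.722 in CD8SP. It was kept less often in CD4SP in 6 of 6 mice, and the CD4SP libraries, at 82.2% to 90.9%, lay below the CD8SP libraries, at 94.8% to 96.7%. The threonine before it was kept in 63.7% ± 3.18 of reads in CD4SP and 75.5% ± 3.24 in CD8SP.

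Joins that lost the glutamate were about as common in both cell types. As a share of all productive TRA reads, joins with the glutamate made up 0.561% ± 0.0456 in CD4SP and 1.81% ± 0.125 in CD8SP. Joins without it made up 0.0881% ± 0.0284 in CD4SP and 0.0845% ± 0.0135 in CD8SP (SD, n = 6 each). Joins without it overlapped and were lower in CD4SP in 3 of 6 mice, on 13 to 32 reads per library. By library, joins without the glutamate made up 0.0714%, 0.0683% and 0.122% in KO CD4SP and 0.118%, 0.0528% and 0.0957% in WT CD4SP. In KO CD8SP they made up 0.0841%, 0.0990% and 0.0865%, and in WT CD8SP 0.0897%, 0.0590% and 0.0884%. Neither cell type nor genotype separates these 12 values.

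The bases removed from the J end largely give the same measure again in productive joins, since removing 6 or more cuts into the glutamate codon. Joins with 6 or more J bases removed made up 12.5% ± 3.60 of productive TRAJ45 reads in CD4SP and 4.28% ± 0.659 in CD8SP. Among the 72.3% of out-of-frame or stop-codon reads with a placed J end, they made up 6.85% ± 4.58 in CD4SP and 9.93% ± 3.82 in CD8SP. On average 26.8 J bases remained in productive CD4SP joins and 27.6 in productive CD8SP joins, lower in CD4SP in 6 of 6 mice.

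The gap between the cell types was widest for the most acidic loops. The mean net charge of a TRAJ45 CDR3 was -0.815 ± 0.0583 in CD4SP and -1.05 ± 0.0337 in CD8SP (SD, n = 6 each), and that of all other TRAJ was 0.809 in CD4SP and 0.492 in CD8SP. TRAJ45 joins of net charge -2 or lower made up 0.110% of productive TRA reads in CD4SP and 0.486% in CD8SP, a log2 ratio of -2.14. Those of -1 made up 0.339% in CD4SP and 1.02% in CD8SP, a log2 ratio of -1.60. Those of 0 made up 0.164% in CD4SP and 0.344% in CD8SP, a log2 ratio of -1.07. Those of 1 or higher made up 0.0355% ± 0.0226 in CD4SP and 0.0409% ± 0.0130 in CD8SP, a log2 ratio of -0.20, on 3 to 17 reads per library. The first 3 classes did not overlap between cell types and the last did.

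Joins of all other TRAJ segments ran in the same order. Their log2 ratios of CD4SP over CD8SP were -1.90 at a charge of -2 or lower, -1.26 at -1, -0.49 at 0 and 0.44 at 1 or higher. At each class TRAJ45 lay below them. Net acidic loops made up 69.2% ± 2.71 of TRAJ45 reads in CD4SP and 79.7% ± 1.56 in CD8SP, against 4.59% of other TRAJ reads in CD4SP and 11.5% in CD8SP. An acidic residue within 2 residues of the middle of the loop was present in 98.2% of TRAJ45 reads in CD4SP and 98.9% in CD8SP, against 13.0% and 23.3% of other TRAJ reads in CD4SP and CD8SP. TRAJ45 supplied 4.69% ± 0.336 of all TRA reads with such a residue in CD4SP and 7.56% ± 0.521 in CD8SP.

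**Figure D3:**
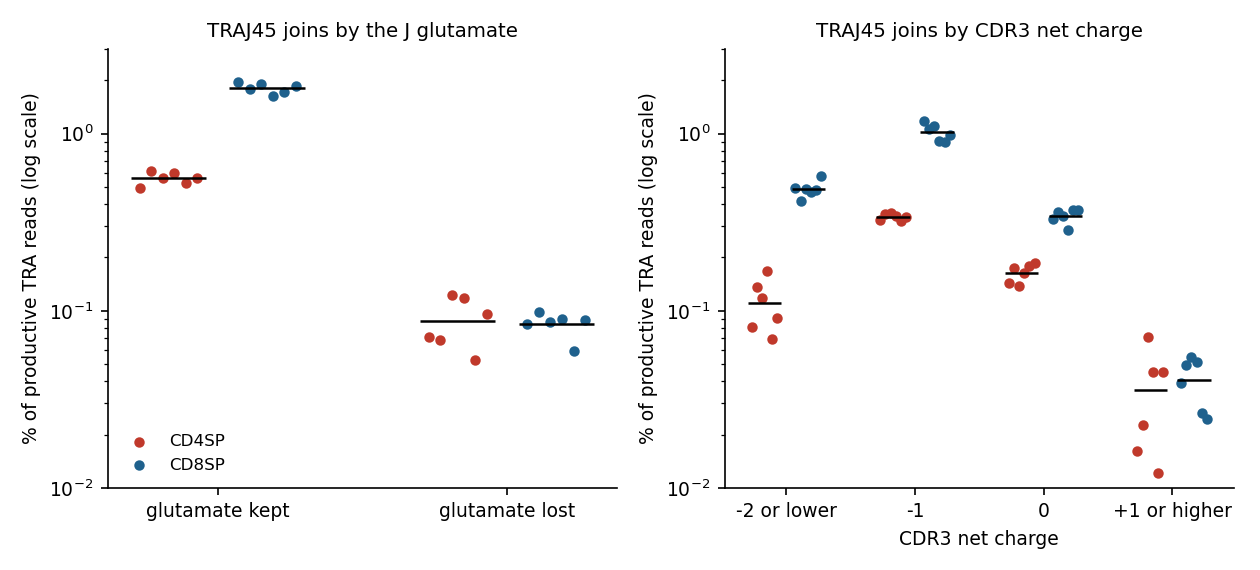
TRAJ45 joins as a percent of productive TRA reads (y axis, log scale) in CD4SP and CD8SP libraries, split by whether the germline glutamate remained (left) and by the net charge of the CDR3 (right). Points are libraries and lines are means of 6. Joins that lost the glutamate average 0.0881% in CD4SP and 0.0845% in CD8SP and overlap, as do joins of charge 1 or higher.

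The residue 10 from the end of the CDR3 also differed, counted over all TRAJ45 reads. It stands before the germline threonine only in reads that kept the threonine, 63.7% in CD4SP and 75.5% in CD8SP. Those reads were not counted apart. Aspartate stood 10 residues from the end in 12.9% ± 3.65 of TRAJ45 reads in CD4SP and 18.1% ± 1.50 in CD8SP, lower in CD4SP in 6 of 6 mice. Asparagine, the commonest residue there, made up 20.7% ± 6.29 in CD4SP and 21.9% ± 2.45 in CD8SP, lower in CD4SP in 3 of 6. Glutamate there made up 2.91% ± 2.65 in CD4SP and 3.36% ± 0.986 in CD8SP, lower in CD4SP in 3 of 6. Of the chains numbered below, chains 2, 3 and 4 have aspartate at this place. Chain 2, a TRAV16 chain, had 6 reads in CD4SP and 191 in CD8SP. Chain 3 had 15 and 37, and chain 4 had 6 and 40. The aspartate shares include these reads and were not counted without them.

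TRAJ45 loops were longer on average than the pooled loops of all other TRAJ segments. Loop length was not compared between single TRAJ segments. TRAJ45 brings 29 germline bases before framework 4. Among the 43 segments this number runs from 24 for TRAJ47 to 35, as for TRAJ53, so some segments bring more bases than TRAJ45. Length is not among the values that TRAJ45 was chosen by, but it was tested with earlier results of these data known. Weighted by reads, the CDR3 measured 13.76 ± 0.135 residues with TRAJ45 and 13.39 ± 0.0126 with all other TRAJ in CD4SP, and 13.96 ± 0.106 with TRAJ45 and 13.47 ± 0.0195 with all other TRAJ in CD8SP (SD, n = 6 each). The difference was 0.371 ± 0.135 residues in CD4SP and 0.489 ± 0.122 in CD8SP, longer in 6 of 6 mice in each. An exact two-sided sign-flip permutation test over mice gave p = 0.03125 in both cell types, also after Benjamini-Hochberg adjustment over both. This is the smallest p that 6 mice allow, and any difference of 1 direction in all 6 mice gives it. No other TRAJ segment was tested this way, so the p does not set TRAJ45 apart. Without the invariant natural killer T chain in the pool, the difference was 0.487 in CD4SP and 0.490 in CD8SP. In CD4SP, loops of 14 residues led with 35.7% ± 1.11 of TRAJ45 reads. In CD8SP, loops of 14 residues held 29.5% ± 1.89 and loops of 15 residues 30.4% ± 2.67, which overlapped, where other TRAJ had 31.3% ± 0.449 and 14.4% ± 0.483. V partners differ too. TRAJ45 joins with TRAV16 averaged 14.98 residues over both cell types. TRAV16 held 22.6% of TRAJ45 reads and 13.4% of other TRAJ reads in CD8SP. Length was not compared within V families, so V partner and J segment are not separated here.

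**Figure D4:**
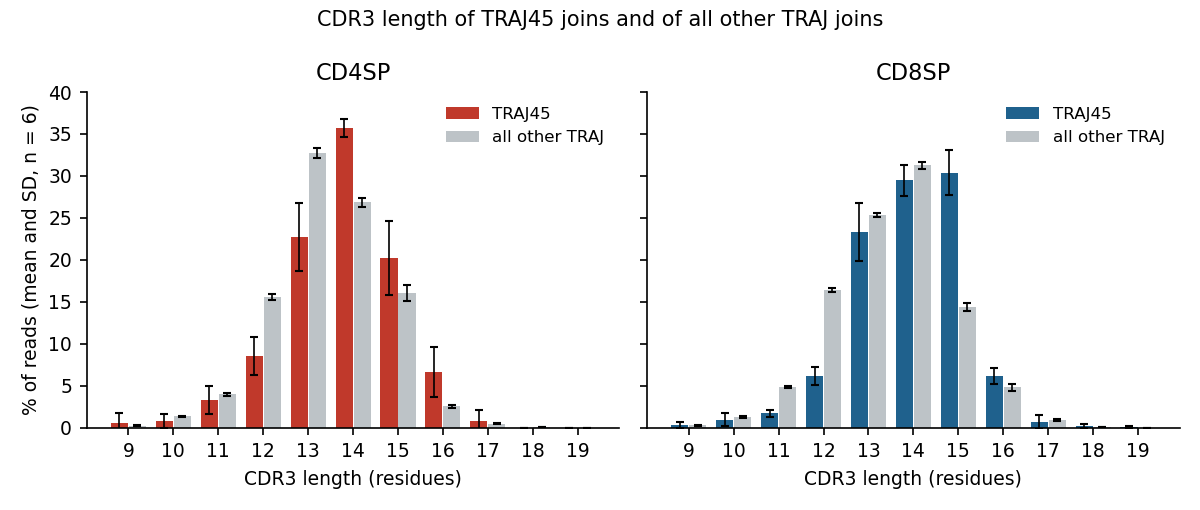
CDR3 length in residues (x axis) of TRAJ45 joins and of joins of all other TRAJ, as a percent of reads (y axis), in CD4SP (left) and CD8SP (right). Bars are means of 6 libraries with SD. Loops of 12 residues made up 8.60% of TRAJ45 and 15.5% of other TRAJ reads in CD4SP, and 6.18% of TRAJ45 and 16.4% of other TRAJ reads in CD8SP.

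TRAJ45 was joined to 20 V families, of which 13 held at least 1% of its reads in a cell type; the other 7 held 33 reads in all. TRAV7 was its main partner in both cell types, with 38.8% ± 3.46 of TRAJ45 reads in CD4SP and 27.6% ± 1.83 in CD8SP, against 36.2% of other TRAJ reads in CD4SP and 33.2% in CD8SP. TRAV16 followed in CD8SP with 22.6% ± 2.80, and had 5.28% ± 2.03 in CD4SP. Among other TRAJ it had 4.30% in CD4SP and 13.4% in CD8SP. TRAV6 held 15.5% ± 2.87 in CD4SP and 14.3% ± 2.36 in CD8SP, and TRAV14 held 11.7% ± 5.37 in CD4SP and 9.35% ± 2.09 in CD8SP. TRAV21 held 7.04% ± 3.38 in CD4SP and 3.53% ± 0.803 in CD8SP, against 1.48% and 0.888% of other TRAJ reads in CD4SP and CD8SP.

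The lower use in CD4SP was spread over the V families. TRAJ45 took a lower mean share of the family's reads in CD4SP than in CD8SP for 13 of 13 named families, and a lower share in 6 of 6 mice for 11. For 8 of the 13 the CD4SP and CD8SP libraries did not overlap, with CD4SP lower. Over all pairs of a V family and a TRAJ with 30 or more reads, this held for 66 of 540 (12.2%), those 8 among them. TRAJ45 was chosen by these same reads, so a count above that share was built in. The counts only describe how the contrast is spread over the families. The log2 ratio of mean shares ran from -2.07 for TRAV5 to -0.82 for TRAV3, with a median of -1.34. In the TRAV16 family, TRAJ45 took 0.663%, 1.04% and 1.04% of reads in KO CD4SP and 1.15%, 0.70% and 0.230% in WT CD4SP. It took 3.83%, 3.44% and 2.97% in KO CD8SP and 3.21%, 2.52% and 3.03% in WT CD8SP. The lowest CD8SP library was above the highest CD4SP library, and KO and WT overlapped in both cell types. Without TRAV16 joins, the TRAJ45 share was 0.642% ± 0.0588 in CD4SP and 1.70% ± 0.127 in CD8SP, a log2 ratio of -1.40.

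TRAV21 (TRAV21/DV12 in the tables) was the named family with the highest share of TRAJ45. TRAJ45 took 4.30%, 2.10% and 1.64% of its reads in KO CD4SP and 2.18%, 3.20% and 3.82% in WT CD4SP. It took 7.24%, 9.22% and 8.37% in KO CD8SP and 5.66%, 5.07% and 7.46% in WT CD8SP. In CD8SP the KO library was higher in 3 of 3 pairs, and the groups overlapped, since KO replicate 1 lay below WT replicate 3. The fitted log2 fold change of KO over WT for this pair of segments in CD8SP was 0.27 (SE 0.412, adjusted p = 0.953 by edgeR). TRAV21 belongs to the V families nearest to the J cluster. These families, TRAV17 to TRAV21, held 9.37% ± 1.82 of TRAJ45 reads in CD4SP and 5.97% ± 0.634 in CD8SP, against 2.44% and 2.19% of other TRAJ reads in CD4SP and CD8SP.

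**Figure D5:**
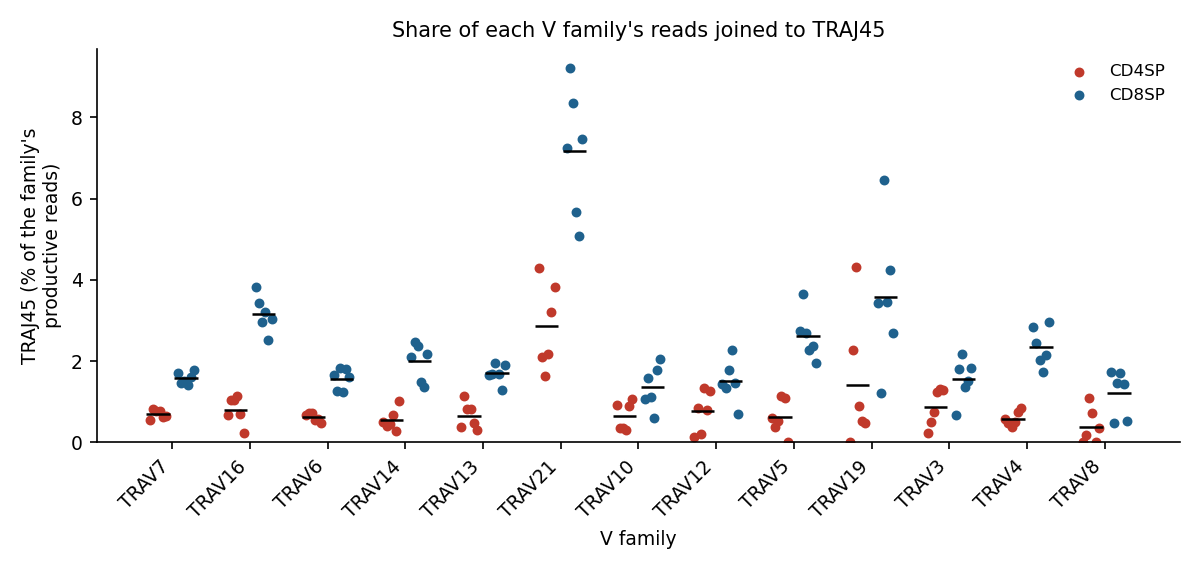
Share of each V family's productive reads that was joined to TRAJ45 (y axis, percent) in CD4SP and CD8SP libraries, for the 13 families with at least 1% of TRAJ45 reads in a cell type (x axis). Points are libraries and lines are means of 6. Means are lower in CD4SP for all 13 families, and TRAV21 reaches 2.88% in CD4SP and 7.17% in CD8SP.

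Most TRAJ45 chains were seen in 1 library only, at the depth of these libraries. Of 1249 distinct amino acid CDR3s, 929 were seen in 1 library, 166 in 3 or more and 38 in 6 or more, and 190 in both cell types. The CD4SP libraries held 492 of them and the CD8SP libraries 947, on 131 to 211 and 402 to 681 TRAJ45 reads per library. Chains missed at this depth can look private, and the matching share for chains of other TRAJ is not given here. Nucleotide clonotypes shared between the CD4SP and CD8SP library of the same mouse numbered 7 to 16 with a median of 8.5, and between libraries of different mice 5 to 16 with a median of 9. Chains are numbered from those found in the most libraries down. The commonest nucleotide forms of 4 widely shared chains are shown to compare what surrounds the germline part. Chains 3, 4, 5 and 8 are not shown. They had 15, 6, 5 and 4 reads in CD4SP and 37, 40, 20 and 12 in CD8SP. Their net charges are -2, -2, 0 and -1. Capitals mark the bases assigned to TRAJ45.
chain 1: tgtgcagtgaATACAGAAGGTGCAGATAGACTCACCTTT
chain 2: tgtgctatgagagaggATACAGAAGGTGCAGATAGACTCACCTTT
chain 6: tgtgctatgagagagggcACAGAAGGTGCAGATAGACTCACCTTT
chain 7: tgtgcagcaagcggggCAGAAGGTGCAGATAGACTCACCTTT

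Chain 1, a 13-residue loop of net charge -1 that was 97.8% TRAV7, was the chain found in all 12 libraries. It had 1, 8 and 2 reads in KO CD4SP, 1, 2 and 3 in WT CD4SP, 10, 23 and 4 in KO CD8SP and 12, 16 and 9 in WT CD8SP. Its commonest form keeps all 29 bases of TRAJ45 before framework 4. Chain 2, a 15-residue TRAV16 loop of net charge -2, had 1, 2 and 1 reads in KO CD4SP, 2, 0 and 0 in WT CD4SP, 41, 36 and 28 in KO CD8SP and 27, 12 and 47 in WT CD8SP. In CD4SP the 0 counts allow a share of up to 0.0122% and 0.0151% of the TRA reads of those libraries. Before its threonine it has arginine, glutamate and aspartate. Chain 6 is a TRAV16 loop of the same length and of charge -1, and has arginine, glutamate and glycine there. It had 0, 0 and 1 reads in KO CD4SP, 1, 2 and 0 in WT CD4SP, 42, 39 and 20 in KO CD8SP and 12, 30 and 15 in WT CD8SP. Both TRAV16 chains were near absent from CD4SP and present in all CD8SP libraries. Chain 7, whose J part lost the start of its threonine codon, was found in 6 CD4SP and 3 CD8SP libraries with 11 and 14 reads.

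Over the 12 libraries, the segments whose log2 share ran most like that of TRAJ45 among 110 compared were TRAV16N (Pearson's r = 0.990), TRAJ33 (0.988), TRAJ30 (0.983), TRAJ26 (0.981) and TRAV12D-3 (0.976). The libraries form 2 separate cell types and share their totals, so these values mostly restate the CD4SP and CD8SP levels. Within a cell type (n = 6 libraries), the same 5 segments had r between -0.28 and 0.67.

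The KO and WT libraries were compared to see whether TRAJ45 use moved with the loss of Chrna9. In a quasi-likelihood test (edgeR), adjusted by Benjamini-Hochberg over 125 V and J segments, the log2 fold change of KO over WT was -0.02 (SE 0.121, adjusted p = 0.995) in CD4SP, where 2 segments were called (1.60%), TRAJ45 not among them. That count was 0 without the replicate block, with each clonotype counted once, without the invariant natural killer T chain, and without KO replicate 3, WT replicate 1 or WT replicate 3. In CD8SP it was 0.12 (SE 0.0928, adjusted p = 0.796), higher in KO in 3 of 3 pairs, with 0 of 125 segments called (0%). In CD8SP 1 segment was called with TMM scaling and 1 without WT replicate 2. The difference between both effects was -0.14 (SE 0.147, adjusted p = 0.973), again with 0 of 125 called. The sign in CD4SP turned under several alternatives, for instance to 0.0785 without KO replicate 1 and 0.0766 without WT replicate 1. DESeq2 gave -0.03 in CD4SP and 0.14 in CD8SP (adjusted p = 0.990 and 0.912).

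Of 454 V family and TRAJ pairs tested, 13 held TRAJ45, and 0 of those passed in either cell type, by edgeR and by DESeq2. With only the 6 CD4SP libraries, 6 TRAJ45 pairs had reads enough to be tested. The other TRAJ45 pairs entered the CD4SP test through their CD8SP reads. Their CD4SP reads, down to 9 for TRAV8 over all 6 libraries, are too few to decide on a KO effect there. The table as a whole had 0 called in CD4SP (0%) and 1 in CD8SP (0.220%). At an unadjusted p under 0.05 there were 0 TRAJ45 pairs in CD4SP and 1 in CD8SP, TRAV14 at a log2 fold change of 0.62 (SE 0.268, unadjusted p = 0.0237, adjusted p = 0.764). TRAV16 with TRAJ45 stood at 0.40 (SE 0.430) in CD4SP and 0.23 (SE 0.192) in CD8SP. Of 521 amino acid alpha chains tested, 6 held TRAJ45, chains 1, 2 and 6 among them, and 0 of those passed in CD4SP or CD8SP. In each cell type 0 of 521 were called (0%), and 0 TRAJ45 chains had an unadjusted p under 0.05. These chains too entered the CD4SP test through their CD8SP reads, since with only the CD4SP libraries 0 TRAJ45 chains had reads enough.

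A panel of 10 further measures of TRAJ45 joins, 20 comparisons over both cell types, gave 0 past the threshold by an exact two-sided sign-flip permutation test. With 3 pairs its smallest p is 0.25, so no comparison could pass, and the lowest adjusted p was 0.833. The out-of-frame share was lower in KO in 3 of 3 pairs in each cell type, at 1.43% ± 0.323 in KO and 1.77% ± 0.258 in WT CD4SP, and 1.69% ± 0.0583 in KO and 1.90% ± 0.180 in WT CD8SP. The groups overlapped in both. The share of net acidic loops was higher in KO in 3 of 3 pairs, at 70.8% ± 1.29 in KO and 67.7% ± 3.11 in WT CD4SP, and 80.1% ± 1.79 in KO and 79.2% ± 1.50 in WT CD8SP, also with overlap. The mean net charge was -0.827 ± 0.0576 in KO and -0.802 ± 0.0686 in WT CD4SP, lower in KO in 2 of 3 pairs. In CD8SP it was -1.03 ± 0.0357 in KO and -1.06 ± 0.0255 in WT, higher and so less acidic in KO in 2 of 3 pairs. The mean CDR3 length was 13.84 ± 0.136 residues in KO and 13.69 ± 0.109 in WT CD4SP, higher in KO in 3 of 3 pairs, and 14.01 ± 0.0458 in KO and 13.90 ± 0.127 in WT CD8SP, higher in 2 of 3. KO and WT overlapped in each of these. KO and WT libraries did not overlap in 1 of the 20 comparisons, the mean charge of the residues before the J part in CD8SP. It was -0.0822, -0.0393 and -0.0805 in KO and -0.117, -0.0900 and -0.139 in WT, a difference of 0.0478 ± 0.0120 (SD over 3 pairs). An exact permutation of labels gave p = 0.1 (adjusted p = 0.8), the smallest that 3 against 3 allow.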

How the data were processed

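Alpha and delta chain clonotype tables of 12 libraries were used. Per the labels, RNA went into SMARTer TCR libraries read on a MiSeq. Clonotypes were assembled with MiXCR, per the series design text, on mm10, per the submitters' processing notes. Version and filters of MiXCR: not given in the sources used here. Per the file headers, each clonotype has a deposited read count and no molecule count, so intervals and floors cover counting error only.

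Joins were assigned by the best hit with the allele dropped. Joins with TRDV or TRDJ were left out of TRA totals. Germline J sequences are the commonest CDR3 end and framework 4 of untrimmed joins, of the lengths in the RefSeq table. Segments, pairs of V family and J, and amino acid chains were tested with edgeR 4.0.16 in R 4.3.3 (quasi-likelihood, productive TRA reads as library size, filterByExpr, threshold 0.05 after Benjamini-Hochberg adjustment) on all 12 libraries. The replicate number entered as a block, since the series design gives the mice in pairs. DESeq2 1.42.0 was an alternative. CD4SP and CD8SP contrasts had the mouse as a block. The same replicate number was taken as the same mouse. Deviations of same-numbered KO and WT libraries from their group means over 111 segments correlated between -0.417 and 0.118, and those of CD4SP and CD8SP libraries of 1 mouse between -0.125 and 0.388. No replicates of a group held identical values. Their chi-square over degrees of freedom was 1.98 to 4.08 against counting error alone, which repeated reads of 1 molecule also raise, and each was counted as a sample.

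Tables were handled with pandas 2.3.3 and numpy 2.4.6 in Python 3.11.15, permutations used scipy 1.17.1 and plots matplotlib 3.10.9. The fits were run on simulated counts with known changes, drawn from the mean of each feature over all libraries. Those counts had no gap between CD4SP and CD8SP. They do not show what KO effect could be found at the TRAJ45 counts in CD4SP. Named were the neighbours TRAJ38 to TRAJ52, V families with at least 1% of TRAJ45 reads, the 5 segments most like TRAJ45 by r and the 5 TRAJ nearest in fold change, and the chains in most libraries. TRAJ45, these lists and the tests were chosen with earlier results of these data known.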

Additional observations from a re-analysis of the deposited data

Results flagged for a closer look

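TRAJ45 was also joined to delta chain V segments, in reads outside the TRA comparisons. Such joins numbered 251 reads, a signal in data that the comparisons do not use, above the 3 reads that a count of 0 allows, and 97.2% of them carried TRDV1. They numbered 30, 16 and 13 reads in KO CD4SP, 18, 13 and 8 in WT CD4SP, 15, 30 and 36 in KO CD8SP and 22, 19 and 31 in WT CD8SP. TRAJ45 made up 6.38% ± 2.30 of productive joins of TRDV with a TRAJ in CD4SP and 9.37% ± 3.82 in CD8SP (SD, n = 6 each), and the libraries overlapped.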

How the results depend on the processing

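The KO effect on the TRAJ45 share in CD8SP and its difference between the cell types kept their direction and did not pass the threshold under all 16 and 14 alternatives, with ranges of 0.10 to 0.16 (adjusted p from 0.752 to 0.968) and -0.22 to -0.02. In CD4SP the value turned sign with each clonotype counted once (0.0406), without the invariant natural killer T chain (0.00073), with TRDV joins (0.0107), without KO replicate 1 (0.0785) and without WT replicate 1 (0.0766). The cause was not tested, and leaving out 1 replicate gave -0.11 to 0.08, with adjusted p from 0.847 up under all 16 alternatives. The fit without the replicate block changed no call of a TRAJ45 result (-0.02 in CD4SP and 0.12 in CD8SP), but took the calls among all 125 segments in CD4SP to 0, against 2 with it. The CD4SP over CD8SP value of -1.55 moved to -1.26 with each clonotype counted once and to -1.81 without clonotypes of 1 read, and lay between -1.61 and -1.48 without any 1 mouse. Leaving out TRAV16 joins (-1.40) or TRAV7 joins (-1.72) was chosen after seeing the data. The longer loops of TRAJ45 were measured against the pool of all other TRAJ. Without any 1 mouse this difference stayed at 0.33 to 0.40 residues in CD4SP and 0.47 to 0.53 in CD8SP. With 5 mice the sign-flip test cannot give a p below 0.0625. The methods' paired comparison, unadjusted, passed 1 of 20 measures (charge before the J part in CD8SP) and 0 after adjustment. Counts of TRAJ45 pairs and chains called stayed at 0 under every alternative run. With each clonotype counted once, and with only the 6 CD4SP libraries in CD4SP, no TRAJ45 chain had reads enough to be tested. Among all chains in CD4SP, 1 was called with only the CD4SP libraries and 1 without KO replicate 3.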
